A study of Rattus norvegicus with 4 samples.

Results

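The response of rat granulosa cells to follicle-stimulating hormone (FSH) was read from a pair of arrays, GFP FSH against GFP vehicle, out of 4 arrays in the series. Granulosa cells are the somatic cells that surround the oocyte. They were taken into primary culture from immature females of the Sprague-Dawley strain, 23 to 25 days old, that had been given estradiol. Cells of both groups were plated in serum-free medium on dishes precoated with 1% serum and infected for 4 h with an adenovirus for green fluorescent protein (GFP), so that the controls also carried a virus. They were then kept for 24 h with FSH at 100 ng/ml or with vehicle. The other groups received FSH and a vector for constitutively active FOXO1 (FOXOA3) or for its DNA-binding mutant (FOXOA3-mDBD), and their signals are given only side by side. All 20826 probe sets with exactly 1 gene symbol were taken, of 31042 rat probe sets in all, and they stood for 14217 genes. Whether an array held RNA of 1 culture or of a pool is not given in the sources used here.

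FSH acts through a G protein-coupled receptor that raises cyclic AMP and activates protein kinase A. In the growing follicle this signal drives granulosa cells to acquire the receptor for luteinizing hormone, to make inhibins and steroids, and to change shape as adhesion and actin fibres are remodelled. The genes described here are those of receptors, secreted ligands, matrix, transcription factors and signalling proteins. They were grouped by gene family through their symbols, and sterol and steroid enzymes were left aside.

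Of the 14217 genes, 9578 were measured, meaning that the higher of the 2 signals was above a floor of 100.5, the median signal of all rat probe sets. The remaining 4639 were under the floor on both arrays. With FSH 655 genes, 6.84% of those measured, were at least 2-fold higher and 1063, 11.1%, at least 2-fold lower. There was 1 array per group, so that no difference here has a replicate check and no p-value is given. A fold is written as "at least" where the dimmer signal was under the floor, which was then used in its place. "Within 2-fold" is judged in the same way, so that a gene near the floor can be within 2-fold although its signals as deposited differ by more. Folds past 8 were seen for 41 higher and 56 lower genes. The genes nearest to the threshold of 2 were Ccdc28b at 2.0-fold higher and Wapl at 1.9992-fold just outside it, and Mxd4 at 2.0-fold and Ano10 at 1.9998-fold on the lower side.

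**Figure D1:**
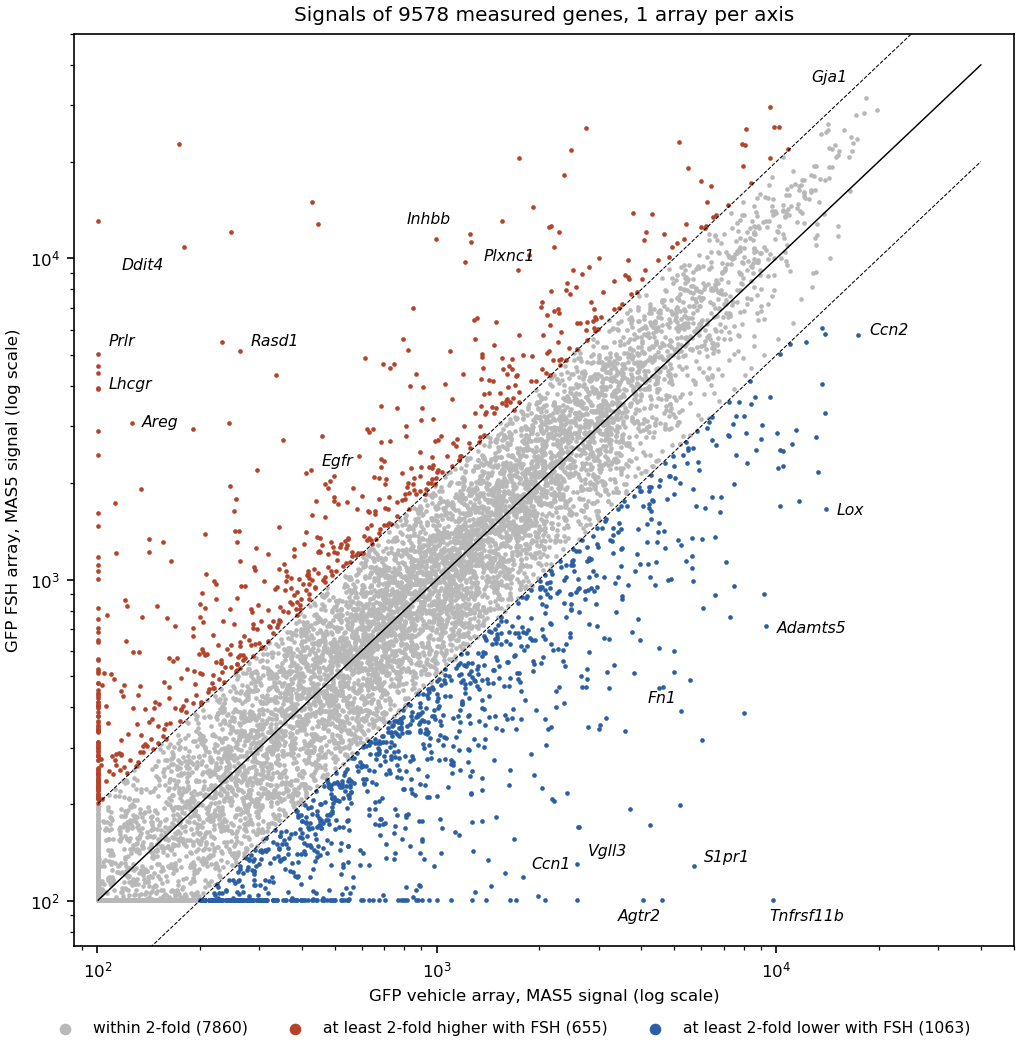
MAS5 signal of each measured gene on the GFP vehicle array (x axis) and the GFP FSH array (y axis), both on log scales, with signals under the floor of 100.5 drawn at it. The solid line marks equal signals and the dashed lines a 2-fold difference; Ddit4, Prlr, Lhcgr and Areg lie far above it, and Tnfrsf11b, Agtr2 and S1pr1 along the lower edge.

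Counts in the families described below are to be read beside the shares over all measured genes, 6.84% higher and 11.1% lower. As a whole these families held more lower than higher genes. Together they held 1137 measured genes, of which 87 were higher and 274 lower, and the median log2 ratio was -0.30, against 0.03 for the 8441 measured genes outside them and -0.0027 for all. Over the 8 alternative settings tried, the median of these families together lay between -0.33 and -0.20. Receptors had 15 of 158 higher and 38 lower, ligands 17 of 115 and 30, matrix genes 15 of 156 and 43, and signalling genes 32 of 466 and 105. Transcription factors had 9 of 249 higher and 61 lower, the lowest share of higher calls among these 5 classes. The share lower among transcription factors was 24.5%, against 11.1% of all measured genes. That class also holds genes that are not transcription factors. Among them are Amot, Amotl2, Zfp36 and Zfp36l2, which were lower, and the kinase Lats2, within 2-fold. Shares also moved with brightness. With the measured genes ranked by mean signal and cut into 4 equal bins, from the dimmest to the brightest, 13.7%, 14.9%, 9.23% and 6.60% were lower, and 6.68%, 7.39%, 5.81% and 7.47% higher. Calls that held in all 8 alternative settings numbered 235 of the 655 higher and 317 of the 1063 lower genes. In the classes they numbered 4 of 15 and 10 of 38 for receptors, 5 of 17 and 15 of 30 for ligands, 4 of 15 and 21 of 43 for matrix genes, 5 of 9 and 18 of 61 for transcription factors, and 10 of 32 and 31 of 105 for signalling genes.

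The 2 arrays also differed in their controls. The geometric mean over bacterial poly-A spike transcripts was 21.4 without and 394.6 with FSH, and that over hybridisation controls 1647 and 2759. The ratio of 3' to 5' signal was 5.15 and 12.0 for beta-actin and 2.32 and 2.46 for GAPDH. The part of these differences in the results was not tested. A second probe set was above the floor for 163 of the higher genes and had the same sign in 95.7% of them, and for 300 of the lower genes, with the same sign in 94.3%. It passed 2-fold the same way in 58.3% and 47.3% and the other way in 1.23% and 0% of them, and it shares the RNA with the first, so it is no replicate. For comparison, 1936 genes within 2-fold had a second probe set. It had the same sign in 68.1% of these and passed 2-fold, either way, in 9.92%.

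Granulosa identity was checked on a fixed list of markers. Of 15 markers 14 were found by name, and the FSH receptor gene Fshr was not analysed here. Foxl2, the forkhead factor of ovarian somatic cells, had signals of 5546 without and 3536 with FSH (1.57-fold). The gap-junction protein Gja1 stood at 18342 without and 31458 with FSH, and inhibin alpha, Inha, at 9571 without and 29569 with FSH (3.09-fold). Granulosa markers above the floor numbered 12 without and 13 with FSH, and their summed signal was 44994 and 114840.4. Of 13 measured members 6 were higher and 1, Wt1, was lower, and Esr2 was under the floor on both arrays. The sum holds the higher members too, so it does not read identity apart from the response to FSH. Markers of theca, stroma and smooth muscle numbered 10 and 7 above the floor, with sums of 28846 and 16547. Of 10 measured members 4 were lower, and Ogn alone had a log2 ratio above 0, at 0.51. Ogn, whose signals are given below, made up most of the sum with FSH. The theca genes Cyp17a1 and Insl3 and the fibroblast receptors Pdgfra and Pdgfrb were under the floor on both arrays, whereas the contractile genes Acta2, at 3711 without and 192 with FSH (19.3-fold), and Tagln, at 9167 without and 902 with FSH (10.2-fold), were lower with FSH. Of 12 leukocyte markers 3 and 2 were above the floor, with sums of 3072 and 1776, of 9 endothelial ones 2 and 2 (sums 869 and 529.6), and of 8 surface epithelium ones 2 and 1 (sums 829 and 409.7). Ptprc, Pecam1, Vwf and Cdh1 were under the floor on both. The measured leukocyte markers were Cd14, which was lower with FSH, and Csf1r and Lyz2, which were within 2-fold. The measured endothelial markers were Kdr and Esam, both lower with FSH, and Egfl7, within 2-fold. Of the surface epithelium markers, Krt8 and Krt18 were measured and were within 2-fold. The 6 oocyte markers summed to 453 and 1066, with Zp2 at 263 without and 622 with FSH (2.36-fold) and Gdf9 at 130.3 without and 262 with FSH (2.01-fold), while Bmp15, Zp1 and Kit were under the floor. Luteal markers, some of which FSH is known to bring up in granulosa cells, were higher in 9 of 9 measured members, with sums of 13835 and 97031.6. The part of other cell types in the results was not tested, and fewer cells of a type and less RNA per cell cannot be told apart here.

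The promoters of 4 members with large differences, 2 in each direction, are shown first. Areg encodes amphiregulin, an epidermal growth factor-like ligand, and had signals of 126 without and 3079 with FSH (24.4-fold). Rasd1, a Ras-like GTPase induced by hormones, had signals of 263 without and 5159 with FSH (19.6-fold). Lower were Vgll3, a cofactor of TEAD factors, at 2585 without and 129.9 with FSH (19.9-fold), and Ccn1, a matrix-associated signalling protein also called Cyr61, at 1789 without and 118 with FSH (15.1-fold). The windows run from 250 bases before to 50 after the annotated start in RefSeq on build GRCr8, read 5′ to 3′ in the gene's direction. They lie at chr14:17265592-17265891 (minus strand) for Areg, chr10:45267633-45267932 (minus strand) for Rasd1, chr11:17089342-17089641 (plus strand) for Vgll3 and chr2:237225640-237225939 (minus strand) for Ccn1. Capitals mark, on either strand, TGACG (the core of the cyclic AMP response element) or AAGGTCA (the site of NR5A receptors) in the higher genes. In the lower genes they mark GGAATG (the site of TEAD factors) or the CArG box of serum response factor.
Areg: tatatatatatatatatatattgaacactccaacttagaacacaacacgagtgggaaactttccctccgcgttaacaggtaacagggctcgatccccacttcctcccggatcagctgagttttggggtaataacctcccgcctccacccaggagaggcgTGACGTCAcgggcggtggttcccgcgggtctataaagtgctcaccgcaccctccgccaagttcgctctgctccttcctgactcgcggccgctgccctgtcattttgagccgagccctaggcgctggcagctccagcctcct
Rasd1: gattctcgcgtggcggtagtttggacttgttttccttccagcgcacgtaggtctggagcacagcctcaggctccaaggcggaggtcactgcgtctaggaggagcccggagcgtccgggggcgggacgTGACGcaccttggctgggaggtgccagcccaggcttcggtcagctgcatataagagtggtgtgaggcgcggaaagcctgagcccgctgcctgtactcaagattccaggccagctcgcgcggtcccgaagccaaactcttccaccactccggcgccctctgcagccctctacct
Vgll3: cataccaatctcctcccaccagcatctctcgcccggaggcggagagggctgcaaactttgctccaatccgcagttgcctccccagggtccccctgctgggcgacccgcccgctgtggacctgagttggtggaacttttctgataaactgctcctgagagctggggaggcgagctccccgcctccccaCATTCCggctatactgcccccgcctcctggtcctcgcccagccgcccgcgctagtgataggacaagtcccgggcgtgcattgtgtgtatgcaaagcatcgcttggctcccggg
Ccn1: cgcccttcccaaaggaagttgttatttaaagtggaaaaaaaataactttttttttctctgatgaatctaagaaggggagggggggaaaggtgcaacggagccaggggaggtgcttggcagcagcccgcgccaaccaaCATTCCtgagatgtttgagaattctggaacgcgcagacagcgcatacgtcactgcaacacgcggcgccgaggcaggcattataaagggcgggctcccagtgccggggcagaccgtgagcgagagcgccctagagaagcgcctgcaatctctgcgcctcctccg
In each window the start follows base 250. In Areg, the capitals form 1 full palindromic element, TGACGTCA, that begins at base 160 of the window. Rasd1 held 1 TGACG, from base 128. The lower genes each held 1 GGAATG on the other strand, printed as CATTCC, from base 188 in Vgll3 and 138 in Ccn1. Ccn1 also held TGACG on the other strand, left in lower case here. These genes were picked as those with the largest ratios that had a match, so the matches themselves are no finding.

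The same letters were then counted over all windows, with no test. A window was found for 8073 of the 9578 measured genes, for 544 of the higher and 860 of the lower ones. TGACGTCA was present in 2.02% of higher, 1.98% of lower and 3.34% of measured genes, and in 1.89% of all 27457 promoters. TGACG, which lies on both strands of that element, was in 31.1%, 25.9%, 33.9% and 21.9%. AAGGTCA was in 3.49% of higher and 1.63% of lower genes, against 2.60% of measured and 4.37% of all. The AP-1 site TGANTCA was in 6.07%, 5.00%, 4.61% and 7.39%, and the forkhead site GTAAACA in 1.65%, 2.67%, 2.32% and 3.80%. GGAATG was in 9.93% of higher, 12.7% of lower and 10.9% of measured genes, with 13.9% of all promoters, and the CArG box in 0.920%, 2.09%, 1.36% and 1.64%. All motifs were searched on both strands. A threshold of 4-fold was added after these values were seen, with 178 windows of lower genes and 104 of higher genes. GGAATG was then in 37 (20.8%) of the lower and 11 (10.6%) of the higher. In the same order the shares were 1.12% and 1.92% for TGACGTCA, 24.2% and 21.15% for TGACG, and 2.81% and 1.92% for AAGGTCA. They were 5.06% and 1.92% for GTAAACA, 5.62% and 5.77% for TGANTCA, and 2.81% and 0.96% for the CArG box.

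**Figure D2:**
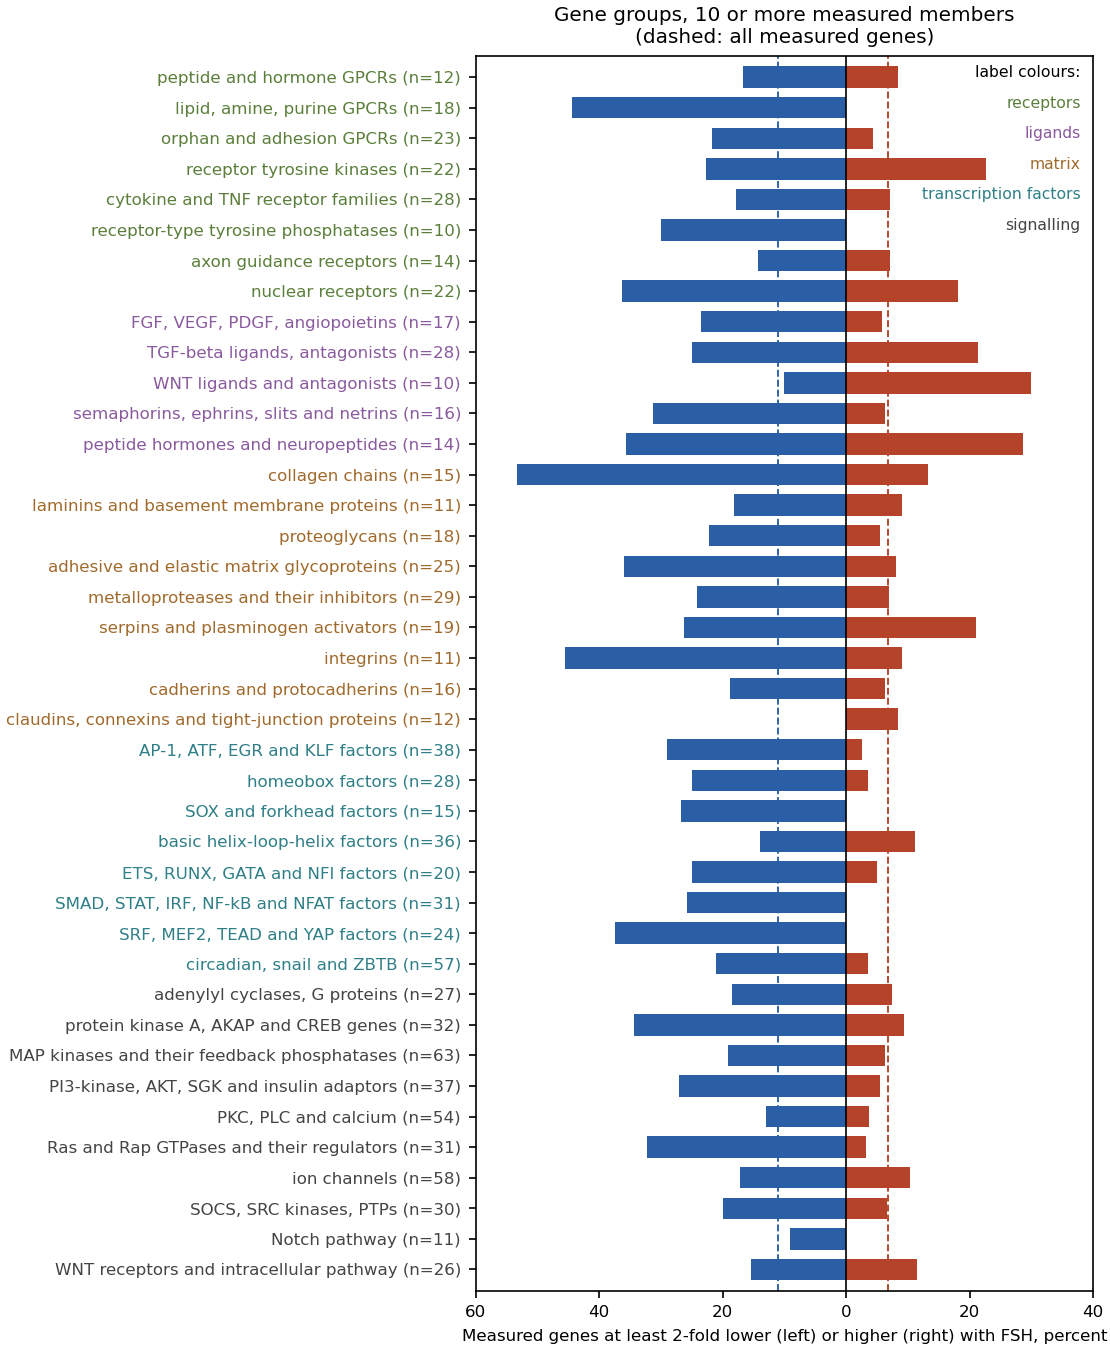
Share of measured genes in each gene group that were at least 2-fold lower (blue, left) or higher (red, right) with FSH, in percent, for groups with 10 or more measured members (n in each label), 1 group left out. Dashed lines mark the shares over all measured genes, 11.1% lower and 6.84% higher; collagen chains, integrins and lipid, amine and purine receptors extend furthest to the left.

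Among receptors, those of luteinizing hormone and prolactin were higher with FSH, and those of angiotensin II and sphingosine 1-phosphate lower. Lhcgr, the receptor that lets the follicle answer the ovulatory surge, had signals of 20 without and 4402 with FSH (at least 43.8-fold). Prlr, the prolactin receptor, had signals of 97.4 without and 5042 with FSH (at least 50.2-fold). Both were under the floor without FSH. Prlr depended on the probe set: a second, dimmer one was at least 4.39-fold higher, and the log2 ratio was 0.49 by the brightest probe set without a suffix that marks shared sequence. Agtr2, a receptor of angiotensin II, ran the other way at 4043 without and 23.5 with FSH (at least 40.2-fold), with a second probe set at least 3.20-fold lower, and Agtr1a was at least 1.998-fold lower. Ramp1, which turns a calcitonin-like receptor into the receptor for CGRP, stood at 1164 without and 338 with FSH (3.44-fold). Gnrhr, the receptor of gonadotropin-releasing hormone, stayed within 2-fold at 3724 without and 4933 with FSH. Of 62 peptide and hormone receptors 12 were measured, with 1 higher (8.33%) and 2 lower (16.7%), against 6.84% and 11.1% of all measured genes.

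Receptors for lipids, amines, purines and proteases had 0 of 18 measured members higher and 8 lower, and a median log2 ratio of -0.84. The lower members include the receptors of sphingosine 1-phosphate, a lipid that acts on adhesion. S1pr1 had signals of 5714 without and 128 with FSH (44.6-fold), and S1pr2 had signals of 1256 without and 216 with FSH (5.82-fold). The lysophosphatidic acid receptor Lpar6 was at 1240.2 without and 294 with FSH (4.21-fold), and Lpar1 and Lpar4, which fall outside the naming rule, were at least 2.38-fold and at least 2.32-fold lower. The receptor P2ry14 for UDP-sugars stood at 673 without and 99.8 with FSH (at least 6.70-fold) and the GABA-B subunit Gabbr1 at 1025 without and 353 with FSH (2.90-fold). F2r, the thrombin receptor, was bright on both arrays at 6313 without and 4566 with FSH. Orphan and adhesion receptors had 1 of 23 measured members higher and 5 lower, and a median log2 ratio of -0.11: Adgrf5 was 4.50-fold higher, while Adgra2, a coreceptor of WNT7 in vessels, was 4.33-fold lower and Gpr176 3.87-fold lower. Averaged over all their probe sets, Gabbr1 and Gpr176 had log2 ratios of -0.68 and -0.65, short of 2-fold.

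Receptor tyrosine kinases went both ways: the family had 5 of 22 measured members higher and 5 lower, and a median log2 ratio of -0.10. The higher ones include Pdgfrl, taken by spelling alone. Egfr, through which amphiregulin and epiregulin act, had signals of 427 without and 2194 with FSH (5.14-fold), and its second probe set was 5.77-fold higher. The collagen receptor Ddr2 was also higher, at 132 without and 436 with FSH (3.30-fold). The ephrin receptor Ephb3 was at 50.5 without and 337 with FSH (at least 3.36-fold). Axl, the receptor of Gas6, was at 2892 without and 6074 with FSH (2.10-fold). Quantile normalization and loess gave Axl log2 ratios of 0.92 and 0.88, short of 2-fold. Ddr1, the other collagen receptor of the pair, was instead lower at 864 without and 214 with FSH (4.04-fold). Lower as well were Ephb4, Kdr and Erbb2. Ephb4, an ephrin receptor, was at 2022 without and 549 with FSH (3.68-fold). The VEGF receptor Kdr was at 376 without and 123.3 with FSH (3.05-fold). Erbb2, the partner of Egfr, was at 277 without and 35.6 with FSH (at least 2.76-fold). Igf1r, the receptor of insulin-like growth factor 1, was nearly equal at 4116 without and 4236 with FSH. Cytokine and TNF receptors had 2 of 28 measured members higher and 5 lower, and a median log2 ratio of -0.07 (0.04 after quantile normalization). Tnfrsf11b, the secreted decoy osteoprotegerin, had signals of 9802 without and 81.1 with FSH (at least 97.5-fold), the lowest ratio of all measured genes. The interleukin 1 receptor Il1r1 was at 753 without and 172 with FSH (4.39-fold) and the growth hormone receptor Ghr at 785 without and 342 with FSH (2.30-fold). Averaged over all its probe sets, the log2 ratio of Il1r1 was -0.71, that of Ghr -0.60 and that of Kdr -0.80. Il4r was 2.08-fold higher and the shared subunit Il6st was within 2-fold at 2656 without and 2216 with FSH.

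Receptors of the TGF-beta and BMP family had 1 of 9 measured members higher and 0 lower, and a median log2 ratio of 0.29. The higher member was Amhr2, the receptor of anti-Müllerian hormone, at 919 without and 1844 with FSH (2.01-fold). Of the other 8, which were all within 2-fold, Bambi, a pseudoreceptor, was at 2147 without and 4064 with FSH (1.89-fold). Bmpr2 was at 2253 without and 4198 with FSH (1.86-fold). Tgfbr1 was at 3548 without and 5413 with FSH (1.53-fold). Bmpr1a was at 1153 without and 1413 with FSH. Acvr1 was at 760.5 without and 814 with FSH. Tgfbr3 was at 119 without and 32.5 with FSH. The activin receptor Acvr2a was at 625 without and 436 with FSH. Its relative Acvr2b was at 192 without and 103 with FSH. Guidance receptors had 1 of 14 measured members higher and 2 lower, and a median log2 ratio of -0.74. These shares were 7.14% and 14.3%, against 6.84% and 11.1% of all measured genes. Plxnc1, a plexin that binds semaphorin 7A, had signals of 1257 without and 11204 with FSH (8.91-fold) and a second probe set that was 17.2-fold higher, whereas Plxna2 was at least 3.85-fold lower and Plxnb2 2.43-fold lower. Receptor-type phosphatases had 0 of 10 measured members higher and 3 lower, and a median log2 ratio of -0.31, namely Ptprs, Ptprd and Ptprk at 2.49-fold, 2.31-fold and 2.19-fold lower, and the second probe set of Ptprk was 1.01-fold lower. None of these 3 was past 2-fold with probe sets averaged, at log2 ratios of -0.60, -0.67 and -0.29. Nuclear receptors had 4 of 22 measured members higher and 8 lower, and a median log2 ratio of -0.32. Nr5a2, also called LRH-1 and a driver of steroidogenic genes, had signals of 2210.2 without and 10820.2 with FSH (4.90-fold), and the atypical receptor Nr0b2 was at 84.9 without and 399 with FSH (at least 3.97-fold). Nr3c1, the glucocorticoid receptor, was at 1946 without and 651 with FSH (2.99-fold) but at a log2 ratio of -0.79 over all its probe sets. The clock repressor Nr1d1 was at 254 without and 85.3 with FSH (at least 2.53-fold) and Nr2f2, also called COUP-TFII, at 2522 without and 1109 with FSH (2.27-fold). The thyroid hormone receptors split, with Thrb at least 2.10-fold higher and Thra 2.39-fold lower, but a second probe set of Thra was 1.07-fold higher. Thrb and Thra had log2 ratios of 0.27 and -0.39 over all their probe sets.

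**Figure D3:**
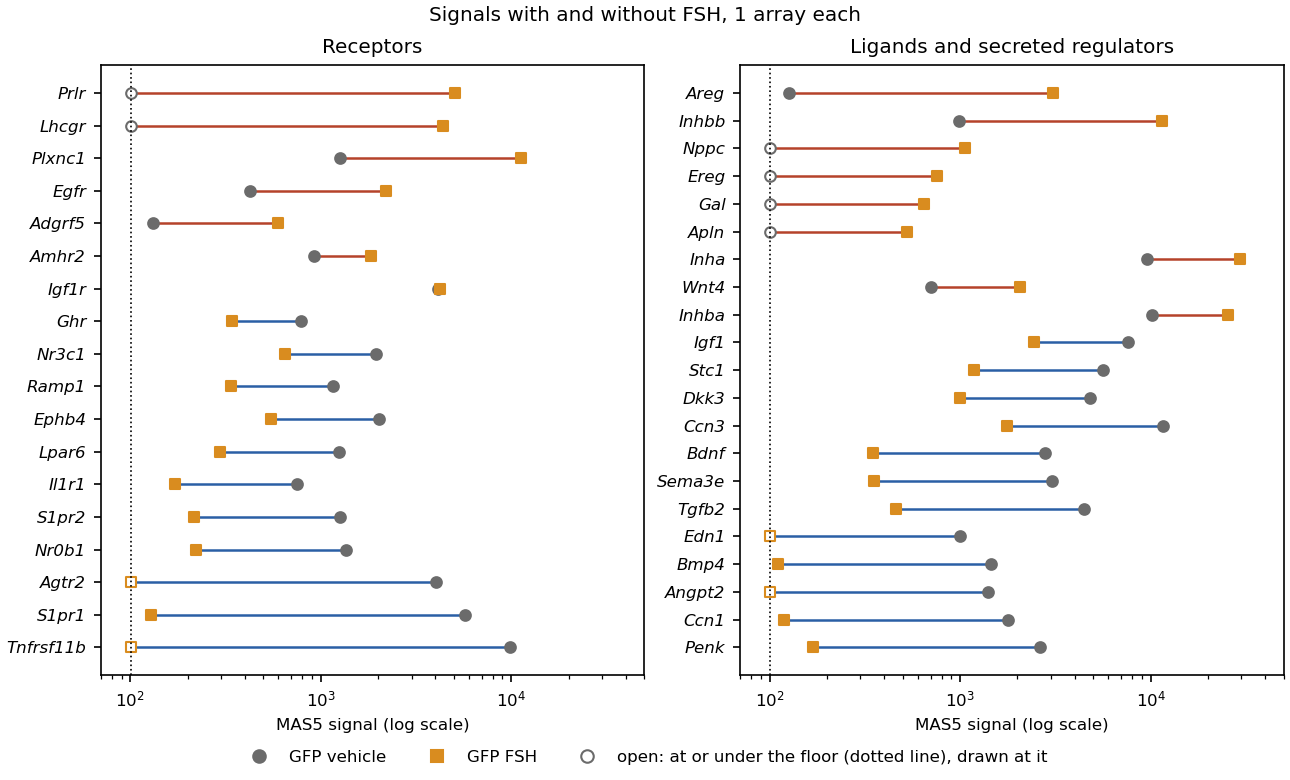
MAS5 signals (x axis, log scale) of receptors (left) and ligands or secreted regulators (right) on the GFP vehicle array (grey circles) and the GFP FSH array (orange squares), joined by a red line where higher and a blue line where lower with FSH. Open symbols are signals at or under the floor of 100.5; Prlr and Lhcgr are open only without FSH, Agtr2 and Tnfrsf11b only with it.

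Ligands of the EGF family, which pass the gonadotropin signal on to cumulus cells, had 7 measured members. Areg, described above, and Ereg, epiregulin, at 88.4 without and 755 with FSH (at least 7.52-fold), were higher. Hbegf, the heparin-binding member, was lower at 384 without and 27.3 with FSH (at least 3.82-fold). The other 4 were within 2-fold. Tgfa was at 786 without and 913 with FSH. Nrg1 was at 218 without and 150.1 with FSH. Nrg2 was at 187 without and 81.2 with FSH. Egf was at 75.1 without and 101 with FSH. With unique probe sets taken first, 5 EGF family ligands were measured, 3 higher and 1 lower, and their median log2 ratio was 1.04, against 0.01. Ligands and antagonists of the TGF-beta superfamily had 6 of 28 measured members higher and 7 lower, and a median log2 ratio of -0.37. The lower ones include Htra2, taken by spelling alone. The inhibin and activin subunits were higher. Inhbb had signals of 993 without and 11519 with FSH (11.6-fold), Inha is given above, and Inhba had signals of 10189 without and 25593 with FSH (2.51-fold). A second, dimmer probe set of Inhba was 13.7-fold higher. After quantile normalization and loess the log2 ratio of Inhba was 0.91 and 0.85, under the threshold. Bmp6 was 3.42-fold higher and Gdf11 2.31-fold higher, but over all their probe sets the log2 ratios were 0.79 and 0.61. Bmp4, Tgfb2, Crim1, Fstl1 and Tgfb3 were lower. Bmp4 was at 1446 without and 111 with FSH (13.0-fold). Tgfb2 was at 4496 without and 459 with FSH (9.79-fold). Crim1, a membrane protein that binds BMPs, was at 11149 without and 2644 with FSH (4.22-fold). Fstl1 was at 3482 without and 1104 with FSH (3.15-fold). Tgfb3 was at 414 without and 159 with FSH (2.60-fold). Bmp2 was at 6339 without and 3181 with FSH, just inside 2-fold.

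Peptide hormones had 4 of 14 measured members higher and 5 lower, and a median log2 ratio of 0.20. Nppc, the precursor of the C-type natriuretic peptide that holds the oocyte in meiotic arrest, was at 59.3 without and 1066 with FSH (at least 10.6-fold). Galanin (Gal) was at 44.9 without and 648 with FSH (at least 6.44-fold). Apelin (Apln) was at 72.7 without and 528 with FSH (at least 5.25-fold). Adcyap1, the precursor of PACAP, which itself raises cyclic AMP, was 3.51-fold higher. Penk, the enkephalin precursor, was lower at 2629 without and 169.6 with FSH (15.5-fold). Edn1 and Adm were lower too. Edn1, endothelin 1, was at 1003 without and 80.4 with FSH (at least 9.98-fold). Adm, adrenomedullin, was at 632 without and 8.5 with FSH (at least 6.29-fold). Stc1, stanniocalcin, was at 5626 without and 1188 with FSH (4.74-fold) and Igf1 at 7579 without and 2437 with FSH (3.11-fold), with a second Igf1 probe set 3.42-fold lower. Growth and vessel factors had 1 of 17 measured members higher and 4 lower, and a median log2 ratio of -0.64. Angptl4, an inhibitor of lipoprotein lipase, was 5.60-fold higher, whereas the vessel factor Angpt2 was at 1396 without and 91.2 with FSH (at least 13.9-fold). The neurotrophin Bdnf was at 2782 without and 348 with FSH (7.999-fold). Pdgfc was at 388 without and 119 with FSH (3.27-fold). Vegfb was at 891 without and 402 with FSH (2.21-fold). Kitlg, the granulosa ligand for the Kit receptor of the oocyte, was at 174 without and 297 with FSH.

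WNT ligands and their secreted regulators had 3 of 10 measured members higher and 1 lower, and a median log2 ratio of 0.07. Wnt4, an early female factor of the gonad, was at 706 without and 2050.4 with FSH (2.91-fold). Sfrp4, a secreted frizzled-related protein, was at 57.6 without and 311 with FSH (at least 3.09-fold). Wnt6 was at 73.2 without and 214 with FSH (at least 2.13-fold). Dkk3 was lower at 4806 without and 1000.3 with FSH (4.80-fold) and at a log2 ratio of -0.71 over all its probe sets. Sfrp4 and Wnt6 had log2 ratios of 0.81 and 0.55 over all their probe sets, so that Wnt4 alone of these 4 stayed past 2-fold. Semaphorins, ephrins and netrins had 1 of 16 measured members higher and 5 lower, and a median log2 ratio of -0.21. Sema6d was at least 3.59-fold higher, and Sema3e, the ligand of plexin D1, was at 3022 without and 353 with FSH (8.56-fold) and the ephrin Efna5 at 539 without and 109.7 with FSH (4.92-fold). Of the IGF-binding and CCN proteins 0 of 8 measured were higher and 5 lower. Besides Ccn1, the connective tissue growth factor Ccn2 was at 17445 without and 5773 with FSH (3.02-fold). Ccn3 was at 11613 without and 1761 with FSH (6.59-fold), and Igfbp7 and Igfbp4 were 2.33-fold and 2.14-fold lower, with Igfbp5 within 2-fold at 3663 without and 4110.3 with FSH. Chemokines had 0 of 7 measured members past 2-fold either way, with Cxcl12 nearest at 311 without and 610.5 with FSH. Of interleukins and TNF ligands 9 were measured and 2 were lower, Tslp at least 3.96-fold and Tnfsf12 at least 2.04-fold, with 0 higher. Igfbp4 and Tnfsf12 were short of 2-fold after quantile normalization, at log2 ratios of -0.89 and -0.97.

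The fibrillar collagen chains Col3a1, Col11a1 and Col5a2, fibronectin and the crosslinking enzyme Lox were lower with FSH, whereas Tgfbi, versican and the plasminogen activators were higher. The calls of versican and of the activators Plat and Plau did not hold in all 8 alternative settings, and those of the others did. Collagen chains had 2 of 15 measured members higher and 8 lower, and a median log2 ratio of -1.02, so that 53.3% were lower. Lower were the fibrillar chains Col3a1, Col11a1 and Col5a2, and Col12a1 and Col14a1, which sit on the surface of fibrils. Col3a1 was at 2607 without and 170.0 with FSH (15.3-fold). Col11a1 was at 13943 without and 3299 with FSH (4.23-fold). Col5a2 was at 8210.5 without and 2306 with FSH (3.56-fold). Col12a1 was at 1158 without and 160.2 with FSH (7.23-fold). Col14a1 was at 1239 without and 296 with FSH (4.19-fold). Over all its probe sets the log2 ratio of Col12a1 was -0.95. Second probe sets of Col11a1 and Col5a2 were 5.37-fold lower and 3.99-fold lower. Col18a1, a basement-membrane collagen that yields endostatin, and Col16a1 were higher, at 152 without and 410.4 with FSH (2.71-fold) and 764 without and 1579 with FSH (2.07-fold). Col18a1 had a log2 ratio of 0.82 over all its probe sets, short of 2-fold. Other fibrillar chains were within 2-fold, with Col5a1 at 3372 without and 2704 with FSH and Col1a2, judged against the floor, at 197 without and 56.5 with FSH, and Col1a1 was under the floor on both arrays. Col8a1 was within 2-fold at 3834 without and 3658 with FSH. Basement-membrane genes had 1 of 11 measured members higher and 2 lower, and a median log2 ratio of -0.24. Nid1, which links laminin to collagen IV, was at 870.5 without and 48.5 with FSH (at least 8.66-fold), but its second probe set was 1.73-fold lower. The laminin chain Lamb2 was 2.20-fold lower, while Lamc1 was at 1914 without and 2140.1 with FSH, and Smoc2, a calcium-binding matrix protein, was 4.46-fold higher. Smoc2 had a log2 ratio of 0.72 over all its probe sets and was not measured when unique probe sets were taken first.

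Adhesive and elastic glycoproteins had 2 of 25 measured members higher and 9 lower, and a median log2 ratio of -0.39. Of the 2 higher ones, Vwa3a was taken by spelling alone. Fn1, fibronectin, was at 5224 without and 389 with FSH (13.4-fold). Lox, the enzyme that crosslinks collagen and elastin, was at 14022 without and 1656 with FSH (8.47-fold). Fbln5, an elastic fibre protein, was at 1358 without and 240.4 with FSH (5.65-fold). A second probe set of Lox was 10.1-fold lower. Tgfbi, a TGF-beta-induced adhesion protein, ran against the group at 77.3 without and 1469 with FSH (at least 14.6-fold). Proteoglycans had 1 of 18 measured members higher and 4 lower, and a median log2 ratio of -0.26. Vcan, versican, which binds hyaluronan in the expanding cumulus, was at 2315 without and 5898 with FSH (2.55-fold) and at a log2 ratio of 0.74 over all its probe sets. Aspn, asporin, was at 1099 without and 22.4 with FSH (at least 10.9-fold), with a second probe set at least 12.1-fold lower, Bgn, biglycan, at 606 without and 140.4 with FSH (4.31-fold), and the syndecans Sdc3 and Sdc1 3.91-fold and 2.45-fold lower, with Sdc3 at a log2 ratio of -0.66 over all its probe sets. Ogn and Omd, both bright, were at 9115 without and 12973 with FSH and at 6239.6 without and 6238 with FSH.

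Metalloproteases had 2 of 29 measured members higher and 7 lower, and a median log2 ratio of -0.21. Among the ADAMTS enzymes, which cut versican and other proteoglycans, Adamts9 was at 48.7 without and 685 with FSH (at least 6.82-fold). Adamts4 was at 106 without and 404 with FSH (3.80-fold). Adamts1, an enzyme of the ovulatory follicle, was at 2170.5 without and 4253 with FSH, close to the threshold. Adamts5, by contrast, was at 9318 without and 714 with FSH (13.0-fold), with a second probe set 33.1-fold lower, and Adamts12 at 398 without and 22.7 with FSH (at least 3.96-fold). The membrane peptidase Anpep was at 2594 without and 52.1 with FSH (at least 25.8-fold) and the inhibitor Timp2 at 2008 without and 936 with FSH (2.15-fold). Serpins and plasminogen activators had 4 of 19 measured members higher and 5 lower, and a median log2 ratio of -0.62. The activators Plat, tissue type, at 223 without and 867 with FSH (3.88-fold), and Plau, urokinase, at 449 without and 1224 with FSH (2.73-fold), were higher, although over all its probe sets Plau had a log2 ratio of 0.72. Also higher was the serine protease Prss35 at 5176 without and 22933 with FSH (4.43-fold). Serpine2, an inhibitor of these proteases, was at 8602 without and 5344 with FSH, and F3, tissue factor, was lower at 1357 without and 486 with FSH (2.79-fold). Tfpi, the inhibitor of tissue factor, was 2.44-fold higher by its brightest probe set and 1.55-fold lower by the second. Timp2 had a log2 ratio of -0.55 over all its probe sets.

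Integrins, the receptors of matrix, had 1 of 11 measured members higher and 5 lower, and a median log2 ratio of -0.70. Itgav, the alpha chain of the vitronectin receptors, was at 2663 without and 501 with FSH (5.32-fold). Its partner Itgb3 was at 370.4 without and 38.1 with FSH (at least 3.69-fold). The laminin-binding chain Itga3 was at 709.6 without and 150.5 with FSH (4.71-fold). Itga6, which also binds laminin, was at 7441 without and 3048 with FSH (2.44-fold) and at a log2 ratio of -0.75 over all its probe sets. The common beta chain Itgb1 was at 10759.6 without and 9559 with FSH. Itga8 was 3.08-fold higher, with its second probe set 1.19-fold lower. Cadherins had 1 of 16 measured members higher and 3 lower, and a median log2 ratio of -0.12 (0.02 after quantile normalization). The mesenchymal cadherin Cdh11 was lower at 1715 without and 56.7 with FSH (at least 17.1-fold). The protocadherin Pcdh18 was higher at 497 without and 2095 with FSH (4.22-fold). The neural cadherin Cdh2 was at 2245 without and 2321 with FSH. The second probe set of Cdh11 was at least 1.51-fold lower. Junction proteins had 1 of 12 measured members higher and 0 lower, and a median log2 ratio of 0.13. The higher one was Cldn11, a claudin, at 41.6 without and 813 with FSH (at least 8.09-fold), and the scaffold Tjp1 was at 5924 without and 5097 with FSH.

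**Figure D4:**
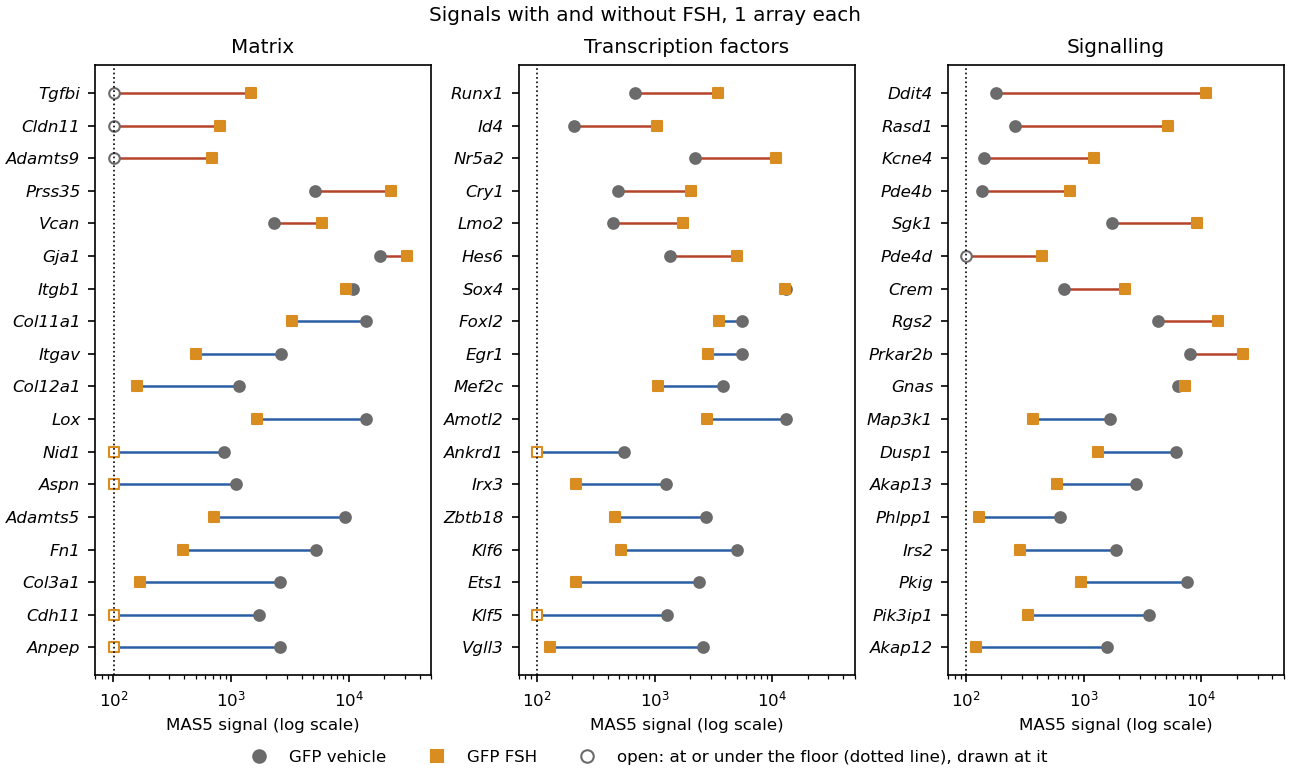
MAS5 signals (x axis, log scale) of matrix genes, transcription factors and signalling genes on the GFP vehicle array (grey circles) and the GFP FSH array (orange squares), with red lines for genes higher and blue lines for genes lower with FSH. Open symbols lie at or under the floor of 100.5; Itgb1 and Sox4 were bright and nearly equal on both arrays.

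Among transcription factors, the Kruppel-like factors Klf5 and Klf6, Ets1 and the TEAD cofactor Vgll3 were lower with FSH, and Runx1, Id4 and Cry1 were higher. Factors of the AP-1, ATF, EGR and KLF type, many of which answer within minutes to growth factors, had 1 of 38 measured members higher and 11 lower, and a median log2 ratio of -0.48. Klf5 was at 1269.5 without and 2.40 with FSH (at least 12.6-fold) and Klf6 at 4981 without and 516 with FSH (9.65-fold), with second probe sets at least 5.32-fold lower and 6.76-fold lower. The small MAF proteins Maff and Mafk were 3.90-fold and 2.91-fold lower, Ier5 was 4.58-fold lower (log2 ratio -0.73 over all its probe sets) and Atf3, a stress factor, 2.85-fold lower. Egr1 was at 5562 without and 2822 with FSH, just inside the threshold, and Jund at 3748 without and 4193 with FSH. Nr4a1, an orphan receptor induced by cyclic AMP, was the higher member at 338 without and 713 with FSH (2.11-fold). These arrays were taken 24 h after FSH was added.

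SRF, MEF2, TEAD and YAP genes, several of which read the state of the actin cytoskeleton, had 0 of 24 measured members higher and 9 lower, and a median log2 ratio of -0.79. With Vgll3, the angiomotins Amotl2, at 13107 without and 2773 with FSH (4.73-fold), and Amot, at 1326 without and 364 with FSH (3.65-fold), were lower. Both bind YAP. Over all its probe sets the log2 ratio of Amot was -0.93. Ankrd1, a nuclear ankyrin protein, was at 547 without and 50.8 with FSH (at least 5.44-fold). The TEAD factor Tead3 was at 432 without and 59.5 with FSH (at least 4.30-fold). Mef2c was at 3823 without and 1066 with FSH (3.59-fold), with a second Mef2c probe set 5.36-fold lower. Tead1 and Wwtr1, also called TAZ, were 2.01-fold and 2.46-fold lower and were picked after their values were seen, while Lats2, the kinase that restrains YAP, was at 4671 without and 3310.4 with FSH. Mef2a was within 2-fold at 1627 without and 1863 with FSH. The median of this group, -0.79, was the lowest of the transcription factor groups.

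ETS, RUNX, GATA and NFI factors had 1 of 20 measured members higher and 5 lower, and a median log2 ratio of -0.32. Runx1, which is known in ovulatory granulosa cells, was at 683 without and 3472 with FSH (5.08-fold), with a second probe set 3.87-fold higher. Ets1 was at 2409 without and 216 with FSH (11.1-fold). Zfpm2, the GATA cofactor FOG2, was at 2810.1 without and 727 with FSH (3.87-fold). Wt1, the Wilms tumour factor of immature granulosa cells, was at 1315 without and 465 with FSH (2.83-fold). Zfpm2 and Wt1 had log2 ratios of -0.65 and -0.75 over all their probe sets, both short of 2-fold. Gata4 was within 2-fold at 1992 without and 3762 with FSH. Homeobox and LIM-only factors had 1 of 28 measured members higher and 7 lower, and a median log2 ratio of -0.18. Lmo2, a LIM-only partner of GATA factors, was higher at 441 without and 1762 with FSH (4.00-fold). Irx3 and Meis1, both homeobox factors, were lower. Irx3 was at 1260.0 without and 217 with FSH (5.81-fold). Meis1 was at 5904 without and 2200.5 with FSH (2.68-fold). SOX and forkhead factors had 0 of 15 measured members higher and 4 lower, and a median log2 ratio of -0.40: Foxj2, Foxp1 and Foxp2 were 5.11-fold, 3.17-fold and 2.21-fold lower, and Foxo1, the factor whose active form the other vectors carry, was at 8149 without and 2862 with FSH (2.85-fold) and at a log2 ratio of -0.73 over all its probe sets. Sox4, bright on both arrays, was at 13175 without and 12786 with FSH.

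Basic helix-loop-helix factors had 4 of 36 measured members higher and 5 lower, and a median log2 ratio of 0.19. These shares were 11.1% and 13.9%, against 6.84% and 11.1% of all measured genes. The lower ones include Tcf7l1 and Tcf7l2, taken by spelling alone and counted among the WNT genes too. No other transcription factor group had a median above 0. The Id proteins block other factors of the class. Id4 was at 208 without and 1041 with FSH (5.00-fold). Id3 was at 2946 without and 6489 with FSH (2.20-fold). After loess the log2 ratio of Id3 was 0.94. Id2 was at 2606 without and 5172 with FSH, just inside 2-fold. Hes6 was at 1360.3 without and 5037 with FSH (3.70-fold). The clock factor Npas2 was at 96.5 without and 283 with FSH (at least 2.82-fold). The Notch target Hey1 was lower at 518 without and 144 with FSH (3.59-fold). SMAD, STAT, IRF and NF-kB factors had 0 of 31 measured members higher and 8 lower, and a median log2 ratio of -0.56. The inhibitory SMADs Smad6 and Smad7 were 2.78-fold and 2.57-fold lower and the BMP-driven Smad1 2.77-fold lower, while Smad4, their common partner, was at 3594 without and 3877 with FSH. Rela, the transactivating subunit of NF-kB, was at 2607 without and 1006 with FSH (2.59-fold). Circadian, snail and ZBTB genes had 2 of 57 measured members higher and 12 lower, and a median log2 ratio of -0.39. Of the 2 higher ones, Zbtb8os was taken by spelling alone. The clock repressor Cry1 was at 485 without and 2030.1 with FSH (4.18-fold). Nfil3, another repressor of clock genes, was at 553 without and 106 with FSH (5.22-fold). Zbtb18 was at 2749.7 without and 462 with FSH (5.95-fold). The RNA-binding proteins Zfp36l2 and Zfp36, which destabilise messenger RNA, were 4.18-fold and 3.14-fold lower. Smad6, Smad7 and Zfp36l2 had log2 ratios of -0.85, -0.47 and -0.69 over all their probe sets, short of 2-fold.

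In the cyclic AMP pathway itself, the phosphodiesterases Pde4b and Pde4d, the kinase subunit Prkar2b and Crem were higher, and the kinase inhibitor Pkig and the anchoring proteins Akap12 and Akap13 lower. The calls of Pde4b, Pde4d and Crem did not hold in all 8 alternative settings, and those of the others did. Phosphodiesterases, which break down cyclic AMP, had 2 of 7 measured members higher and 0 lower, and a median log2 ratio of 0.14. The higher ones were Pde4b, at 136 without and 764 with FSH (5.63-fold), and Pde4d, at 91.2 without and 443 with FSH (at least 4.41-fold), and a second probe set of Pde4d was at least 1.202-fold higher. Over all its probe sets the log2 ratio of Pde4d was 0.93. The other 5 were within 2-fold. Pde8a was at 2022 without and 2893 with FSH. Pde7a was at 858 without and 918 with FSH. Pde6d was at 541 without and 597 with FSH. Pde4c was at 101 without and 16.1 with FSH. Pde10a was at 526 without and 311 with FSH. Of 7 measured regulators of G protein signalling, Rgs2 was higher at 4288 without and 13734 with FSH (3.20-fold) and Gpsm1 lower at 502 without and 206 with FSH (2.44-fold). Rgs12 and Rgs19 were just inside the threshold at 402 without and 201 with FSH and at 248 without and 129 with FSH. Rgs3 was at 274 without and 165 with FSH. Rgs10 was at 144 without and 176 with FSH. Gpsm2 was at 107 without and 144 with FSH. Protein kinase A, its anchors and CREB factors had 3 of 32 measured members higher and 11 lower, and a median log2 ratio of -0.28. Prkar2b, the regulatory subunit long known to follow FSH in granulosa cells, was at 7932 without and 22752 with FSH (2.87-fold), and Crem, whose short forms repress cyclic AMP targets, at 685 without and 2235 with FSH (3.26-fold). Crem had a log2 ratio of 0.64 over all its probe sets. Pkig, an inhibitor of the kinase, was at 7523 without and 957 with FSH (7.86-fold). The anchoring protein Akap12 was at 1587 without and 122 with FSH (13.0-fold). Another anchor, Akap13, was at 2799 without and 593 with FSH (4.72-fold). The catalytic subunit Prkacb and the regulatory Prkar1a were within 2-fold, at 2860.5 without and 2419 with FSH and 7048 without and 9357 with FSH. Adenylyl cyclases and G proteins had 2 of 27 measured members higher and 5 lower, and a median log2 ratio of -0.29. The cyclase Adcy6 was at 2014 without and 945 with FSH (2.13-fold) and at a log2 ratio of -0.55 over all its probe sets. The 5 lower members became 2 with probe sets averaged, and 3 under quantile normalization, median centring and loess. Gnb5 was at 498 without and 1804 with FSH (3.63-fold). The stimulatory alpha subunit Gnas was at 6368 without and 7307 with FSH.

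Ras and Rap genes had 1 of 31 measured members higher and 10 lower, and a median log2 ratio of -0.40, with Rasd1 as the higher one and Sipa1l2 and Rassf3 4.37-fold and 3.69-fold lower and Rasgrp3 at least 6.03-fold lower. Sipa1l2 had a log2 ratio of -0.71 over all its probe sets. Outside the groups, but among the 15 genes with the lowest ratios of all, were the actin-associated Lmcd1, Pdlim3 and Lims2 and the hyaluronan-binding Cemip. Lmcd1 was at 2081 without and 77.4 with FSH (at least 20.7-fold). Pdlim3 was at 1979 without and 103 with FSH (19.1-fold). Lims2 was at 1642 without and 26.3 with FSH (at least 16.3-fold). Cemip was at 6046 without and 316 with FSH (19.1-fold).

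MAP kinase genes had 4 of 63 measured members higher and 12 lower, and a median log2 ratio of -0.15. Dusp1, a phosphatase that switches MAP kinases off, was at 6046 without and 1334 with FSH (4.53-fold). The kinase Map3k1 was at 1662 without and 371 with FSH (4.48-fold). Map3k7, also called TAK1, was at 4196 without and 1116 with FSH (3.76-fold). Spry1, an inhibitor of receptor kinases, was at 357 without and 51.1 with FSH (at least 3.55-fold). Higher were Rps6ka5, also called MSK1, at 77.3 without and 511 with FSH (at least 5.08-fold) and Map2k6 at 163 without and 568 with FSH (3.49-fold). PI3-kinase and insulin genes had 2 of 37 measured members higher and 10 lower, and a median log2 ratio of -0.26. The mTORC1 inhibitor Ddit4 had signals of 180.3 without and 10827 with FSH (60.05-fold), and the kinase Sgk1, a classical FSH target, had signals of 1734 without and 9197 with FSH (5.30-fold). The lower members include Pik3ip1, Irs2 and Phlpp1. Pik3ip1, which binds PI3-kinase, was at 3581 without and 338 with FSH (10.6-fold). The insulin receptor adaptor Irs2 was at 1896 without and 287 with FSH (6.61-fold). The AKT phosphatase Phlpp1 was at 633 without and 129 with FSH (4.91-fold). Tsc2, which restrains mTORC1, and the adaptor Gab1 were 2.52-fold and 2.40-fold lower. Inpp5k, a lipid phosphatase, was 2.37-fold lower and had a log2 ratio of -0.62 over all its probe sets. Akt1 and Pdpk1 were within 2-fold, at 4405 without and 3154 with FSH and 3326 without and 3338 with FSH. Calcium and protein kinase C genes had 2 of 54 measured members higher and 7 lower, and a median log2 ratio of -0.25. These shares were 3.70% and 13.0%, against 6.84% and 11.1% of all measured genes. Plcb4 was 3.47-fold higher and Prkcb 2.80-fold higher, and Rcan2, a calcineurin regulator, was 5.62-fold lower and Plcd1 4.44-fold lower. Plcb4 and Prkcb had log2 ratios of 0.90 and 0.49 over all their probe sets, both short of 2-fold.

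Ion channels had 6 of 58 measured members higher and 10 lower, and a median log2 ratio of -0.09 (0.01 after median centring). The potassium channel subunits Kcne4 and Kcnq1, which can assemble with each other, were at 142 without and 1217 with FSH (8.59-fold) and 31.6 without and 453 with FSH (at least 4.51-fold). Both were higher with FSH, as were the next channels. The sodium channel subunit Scn2b was at 169.5 without and 717 with FSH (4.23-fold). Kcng2 was at 171 without and 569.9 with FSH (3.33-fold). Lower were the tandem-pore potassium channels Kcnk6 and Kcnk2, at 527 without and 9.80 with FSH (at least 5.24-fold) and 678 without and 159.8 with FSH (4.24-fold). Trpc4 was at 461 without and 44.0 with FSH (at least 4.59-fold). Second probe sets were 3.78-fold higher for Kcng2 and at least 1.04-fold lower for Kcnk6. Suppressors of cytokine signals, SRC-family kinases and tyrosine phosphatases had 2 of 30 measured members higher and 6 lower, and a median log2 ratio of -0.36. Src, the founding kinase at adhesion sites, was at 840.2 without and 239 with FSH (3.51-fold), Ptpn13 at 2461 without and 682 with FSH (3.61-fold), and Ptpn4 and Socs7 were 2.41-fold and 2.29-fold higher. WNT receptors and intracellular genes had 3 of 26 measured members higher and 4 lower, and a median log2 ratio of -0.18, with Fzd8 3.17-fold higher, Tcf7l2 2.29-fold lower and Ctnnb1, beta-catenin, at 10532 without and 11526 with FSH. Of 11 measured Notch pathway genes 0 were higher while 1, Maml2, was at least 2.44-fold lower, with the nuclear effector Rbpj at 4836 without and 4112 with FSH. The share of Notch genes lower was 9.09%, against 11.1% of all measured genes. Over all their probe sets Src, Socs7, Tcf7l2 and Maml2 had log2 ratios of -0.73, 0.62, -0.58 and -0.41, short of 2-fold.

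The same genes can be followed on the arrays with FSH and a FOXO1 vector, given here with both GFP arrays first (vehicle, then FSH), then FOXOA3 and last FOXOA3-mDBD. All 3 hormone-treated arrays lie above GFP vehicle for Lhcgr, with signals of 20, 4402, 497 and 186, and for Rasd1, with 263, 5159, 880.3 and 612. Areg differed from these in being highest with the mutant, at 126, 3079, 1383 and 4537. Among genes low with FSH, Agtr2 had 4043, 23.5, 3758 and 575 and Klf6 4981, 516, 4612 and 2219, and the FOXOA3 FSH signal of each was within 2-fold of that on GFP vehicle. S1pr1, at 5714, 128, 623 and 717, Ccn1, at 1789, 118, 1224 and 703, and Vgll3, at 2585, 129.9, 1486 and 396, were lowest on GFP FSH, as were Agtr2 and Klf6. With FOXOA3, Ccn1 and Vgll3 were also within 2-fold of GFP vehicle, whereas S1pr1 was not. Fn1 was brightest with FOXOA3, at 5224, 389, 8740.5 and 544. It too was lowest on GFP FSH and within 2-fold of GFP vehicle with FOXOA3. These arrays were read against the same GFP arrays, so their signals are no replicate of the response. The controls differed between the arrays as well. In the same order, the geometric mean over poly-A spike transcripts was 21.4, 394.6, 22.6 and 539. That over hybridisation controls was 1647, 2759, 1224 and 2855. GFP vehicle and FOXOA3 FSH were thus alike in these controls, and the part of this in the signals above was not tested.

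**Figure D5:**
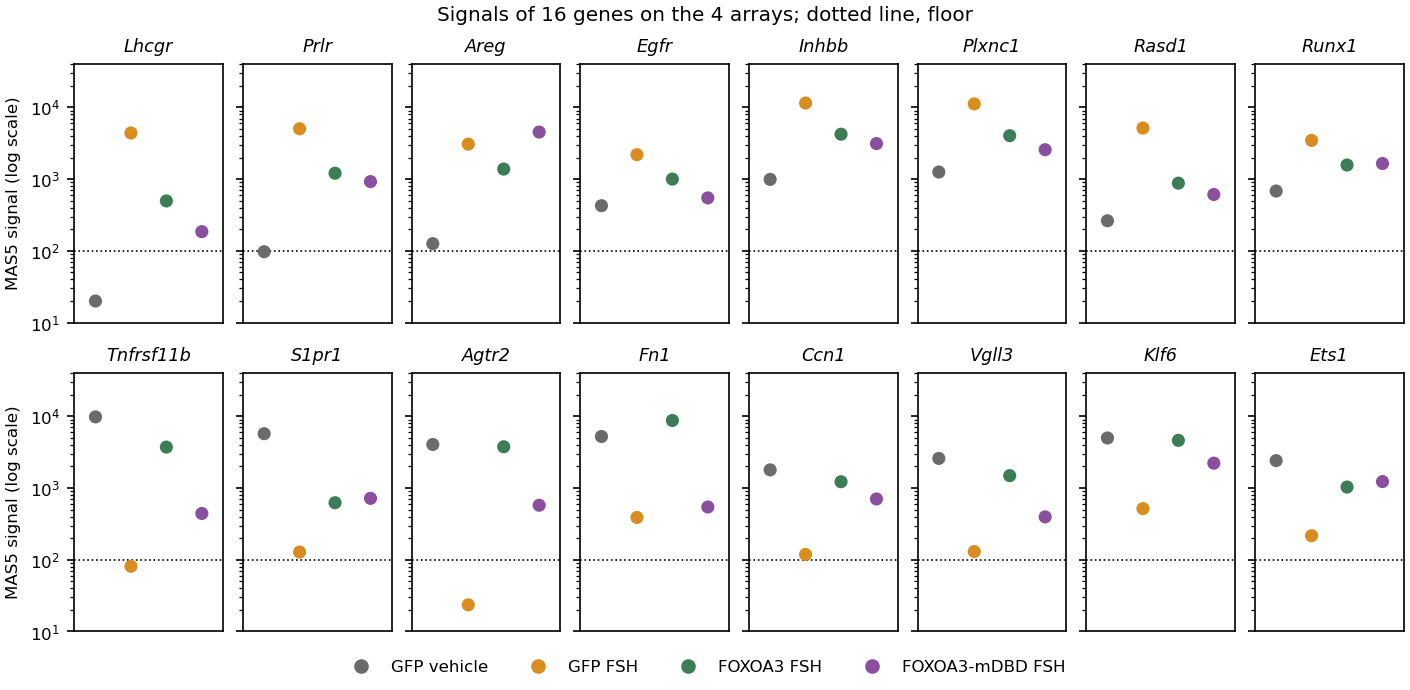
MAS5 signals (y axis, log scale) of 8 genes higher (top) and 8 genes lower (bottom) with FSH on the 4 arrays, 1 point per array, chosen after their values were seen. The dotted line is the floor of 100.5; the GFP FSH point is the lowest of the 4 for each gene of the bottom row, and the GFP vehicle point is the lowest for each gene of the top row.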

How the data were processed

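RNA of each group was hybridised to 1 Affymetrix rat array of 31099 probe sets. The deposited values are linear MAS5 intensity values, made by the authors with MAS5, per the submitters' processing notes; its version is not given in the sources used here. Each array had a 2% trimmed mean near 500.15. The number of arrays limits the precision, and p-values cannot be had.

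The 57 control probe sets were left out. A probe set was named where the platform annotation gave exactly 1 symbol (20826, of which 99.67% had an Entrez ID in the RefSeq table for GRCr8). Another 436 had several symbols and 9780 none. The brightest probe set by mean over the 4 arrays stood for a gene. Signals below the floor of 100.5, the median of rat probe sets, were set to it, and log2 ratios were taken. The second probe set given for a gene is the next brightest above the floor.

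Gene groups were symbol patterns, which take some genes by spelling alone (among them Agtrap, Unc50, Zbtb8os, Vwa3a, Tcf7l1, Tcf7l2, Pdgfrl and Htra2). Over all genes the 15 largest ratios in each direction could be named, in each group up to 6 called genes in each direction and the 4 brightest others, all measured members of 4 small groups, and the marker genes. One gene group is not reported here. Members, lists and rules were chosen with earlier results of these data known. The 8 alternatives changed the floor, the probe set rule, the scaling or the floor for a pseudocount of 50. Code was tested on simulated data. Python 3.11.15, pandas 2.3.3, numpy 2.4.6 and statsmodels 0.14.6 (loess, span 0.4) were used. Promoters came from RefSeq's GRCr8 table.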

Additional observations from a re-analysis of the deposited data

Results flagged for a closer look

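Probe sets with no single gene symbol were left out of the comparison but carried differences of a like extent. Of 10216 such probe sets 3620 were measured, and 242 (6.69%) were at least 2-fold higher and 398 (10.99%) at least 2-fold lower with FSH, with a median log2 ratio of -0.08. The probe set 1376944_at had signals of 108.6 without and 6474.5 with FSH (59.6-fold higher), and 1378883_at had 171.9 and 7959 (46.3-fold higher). On the lower side, 1382296_at had 7292 and 146 (49.9-fold lower) and 1373740_at had 7461 and 257 (29.0-fold lower). These 4 were chosen after their values were seen, and which transcripts they measure was not examined.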

How the results depend on the processing

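Each group had 1 array, so leaving out a replicate was not possible. No paired analysis was possible because each group had a single sample with replicate number 1. The floor had the largest effect on the counts: with the 25th percentile of signals as the floor 1087 genes were at least 2-fold higher, and with the 75th percentile 354 were higher and 456 lower, since more or fewer genes are then measured. The other alternatives (the mean over probe sets, unique probe sets first, quantile normalization, median centring, loess and the pseudocount) kept both counts within 1.5 times. With the mean over probe sets, 540 of the 655 higher genes and 767 of the 1063 lower genes kept their call, and the count of higher or of lower members moved by over 1.5 times in 9 and 11 of 48 gene groups. Taking unique probe sets first left Smoc2, Zfpm2, Prkcb, Ghr and Kdr unmeasured. The pseudocount of 50 put genes close to the threshold inside it, among them Amhr2, Nr4a1, Thrb and Il4r. Under quantile normalization and median centring, 44.1% and 46.2% of calls were higher, against 38.1% as deposited. Of the genes that could be named, Thra alone among called ones turned sign, with a log2 ratio of 0.10 when unique probe sets were taken first, against -1.26. Differences of genes near the floor rest on 1 dim signal.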
